A study of Mus musculus with 7 samples.

Results

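The genes described here are the metallothioneins and the genes of cellular zinc handling in C2C12 myotubes. They are the 9 symbols Mt1, Mt2, Mt3, Mtf1, Slc30a1, Slc30a4, Slc30a5, Slc39a10 and Slc39a14, taken by exact match from the 26607 genes listed for each library, and all 9 were found. C2C12 is a mouse myoblast cell line, derived from 1 clone, that fuses into multinucleated myotubes in low serum. All cultures were differentiated in medium with 2% serum. The EPS group (n = 4 libraries, replicates 1 to 4) then received electrical pulse stimulation, which makes myotubes contract, for 24 h from day 3 of differentiation, with 1 h of rest before RNA isolation, and the control group (n = 3, replicates 1, 3 and 4) was left without pulses. The comparison of the 2 groups asks what 24 h of pulses does to muscle cells in the absence of other organs. Contraction and other effects of the pulses cannot be told apart in this design. Neither the labels nor the methods say that the libraries came from separate cultures, so the p-values measure the spread between these libraries, which may be technical.

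Metallothioneins are small cysteine-rich proteins that bind zinc, copper and cadmium in the cytosol, and their synthesis rises when free zinc, heavy metals, glucocorticoids or oxidants rise. Free zinc is sensed by MTF1, the metal-responsive transcription factor, whose zinc fingers bind metal response elements (MREs) in the promoters of Mt1, Mt2 and Slc30a1. Zinc crosses membranes through opposed families of transporters: SLC30 (ZnT) proteins move it out of the cytosol, into vesicles or out of the cell, and SLC39 (ZIP) proteins move it into the cytosol. Mt1 and Mt2 are transcribed in most tissues, whereas Mt3 belongs to brain and Mt4 to stratified epithelia. In skeletal muscle, Mt1 and Mt2 are known to rise in wasting and with glucocorticoids.

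The upstream promoter sequences of the 3 genes with the clearest link to MTF1 are shown because the MRE core is the feature that Mt1, Mt2 and Slc30a1 are known to share. They are RefSeq sequences on GRCm38.p6, running over the 250 bases before the annotated start on the gene's strand. Capitals mark the MRE core, searched as TGCACNC or TGCGCNC on both strands.
Mt1 promoter, chr8:94178839-94179088, plus strand: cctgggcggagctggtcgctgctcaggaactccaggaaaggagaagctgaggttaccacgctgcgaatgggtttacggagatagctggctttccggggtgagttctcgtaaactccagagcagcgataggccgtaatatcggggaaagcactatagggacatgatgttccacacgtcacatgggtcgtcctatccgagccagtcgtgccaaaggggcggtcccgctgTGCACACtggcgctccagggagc
Mt2 promoter, chr8:94172368-94172617, plus strand: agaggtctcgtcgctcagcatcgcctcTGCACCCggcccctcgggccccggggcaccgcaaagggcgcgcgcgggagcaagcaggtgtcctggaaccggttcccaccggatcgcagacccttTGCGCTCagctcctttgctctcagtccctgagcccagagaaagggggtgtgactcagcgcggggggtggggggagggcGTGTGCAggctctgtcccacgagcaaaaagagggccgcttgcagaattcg
Slc30a1 promoter, chr1:191906531-191906780, plus strand: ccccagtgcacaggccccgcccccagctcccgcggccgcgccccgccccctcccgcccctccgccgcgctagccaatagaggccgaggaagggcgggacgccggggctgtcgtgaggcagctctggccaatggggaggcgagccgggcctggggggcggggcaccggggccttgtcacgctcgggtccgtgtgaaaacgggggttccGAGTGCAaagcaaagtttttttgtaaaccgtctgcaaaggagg
Promoters of 8 of the 9 genes were matched by symbol, Slc39a14 being the one that was not. Positions are counted from 0 at the annotated start, with upstream bases negative, and the search window ran to 50 bases past it, 300 bases in all. Mt1 held 3 MRE cores in this window, beginning at -23, 2 and 20, of which the first lies in the printed stretch. Only 1 listed start of Mt1 was searched, so cores near any other start are not counted. Mt2 held 4, beginning at -223, -128, -50 and 4. The first bases from this listed start of Mt2 occurred in none of its GENCODE transcripts, so its positions may not count from the start in use. Slc30a1 held 2, beginning at -43 and 30. Among all 32851 mouse promoters of the same length, 25.7% held at least 1 core, 7.11% at least 2, 1.97% at least 3 and 0.517% at least 4. Slc30a4 also held 3 cores, Slc30a5 and Mt3 held 1 each, and neither Mtf1 nor either of the 2 listed promoters of Slc39a10 held any. Of these 2 promoters, 1 lies outside the GENCODE span of Slc39a10, and its first bases occurred in none of the gene's GENCODE transcripts. The core of the antioxidant response element, TGACNNNGC on both strands, was found once in Mt2 at -79, once in Slc30a1 at -82 and once in Slc30a5 at 6, against 12.4% of all promoters with at least 1. No match of 1 motif lay over a match of the other. These matches describe the letters of the window and do not show that a factor was bound.

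Values are CPM, the reads of a gene per 1000000 reads on the listed genes of its library. Differences are given on the log2(CPM + 1) scale, EPS minus control, with the standard error from limma, whose fit took in the 19144 genes that any library detected. DEGs are genes that changed more than 2-fold with P under 0.01, two-sided and before adjustment. Of the 9 genes, Mt1 and Mt2 were called higher in EPS, against a background of 0.966% of all tested genes, and Slc39a10 was called lower, against 0.439%. The other 6 were not called. At a Benjamini-Hochberg adjusted p under 0.05, which 0.141% of all tested genes passed, limma called 0 of the 9, although 4 of them had an unadjusted P under 0.05, which 11.6% of all tested genes had. edgeR and DESeq2 on the recovered reads each called 3 of the 9 at that threshold, Mt1, Mt2 and Slc39a10, against 1.51% of all genes in edgeR and 3.39% in DESeq2. The median difference of all tested genes was 0.04 on the log2(CPM + 1) scale, and 0.10 for genes with a mean of at least 1 CPM.

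The cell type label was checked with markers. All 10 myotube markers were present in every library, with a summed level of 12142 to 15173 CPM in control and 9671 to 12861 CPM in EPS. None of the 10 was called by limma (1 at an unadjusted P under 0.05), edgeR and DESeq2 called Actn2 and Myog lower, and their median difference was -0.51 on the log2(CPM + 1) scale. Markers of cycling or undifferentiated myoblasts summed to 373 to 401 CPM in control and 446 to 1084 CPM in EPS, with none of 8 called by limma (5 at an unadjusted P under 0.05) and a median difference of 0.53. edgeR and DESeq2 called Mki67 and Ccnb1 higher and Id1 lower, and no marker of either list was at 0. In bulk RNA, fewer cells of a type and less RNA per cell cannot be told apart, and the part of these markers in the results for Mt1, Mt2, Slc30a1 and Slc39a10 was not tested. Recovered reads ranged from 16616917 to 22120641 per library. Control replicate 4 listed 359 genes with 1 to 5 reads, against 2670 to 3181 elsewhere.

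The metallothionein genes lie side by side on chromosome 8 of GRCm38. Mt1 (ENSMUSG00000031765.8), at chr8:94179082-94180327 on the plus strand, is the zinc-binding metallothionein usually followed as the readout of MTF1. Its level was 92.8, 99.5 and 112.9 CPM in control replicates 1, 3 and 4, and 273.6, 1026, 321 and 383 CPM in EPS replicates 1 to 4. Every EPS library lay above every control library, and EPS replicate 2 stood far above the other EPS libraries. The group means were 102 ± 10.2 CPM (SD, n = 3) and 501 ± 353 CPM (SD, n = 4). Mt1 was up-regulated by 2.08 ± 0.41 (SE) on the log2(CPM + 1) scale in limma, or 4.22-fold, with an adjusted p = 0.0968.

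Mt2 (ENSMUSG00000031762.7), at chr8:94172664-94173568 on the same strand, encodes the sister protein with a like metal-binding role. Mt2 stood at 41.4, 41.6 and 70.8 CPM in the control replicates and at 190.7, 757, 258 and 255 CPM in EPS replicates 1 to 4. The groups again did not overlap, and replicate 2 was again the highest of the EPS libraries. Means were 51.3 ± 16.9 CPM (SD, n = 3) in control and 365 ± 263 CPM (SD, n = 4) in EPS. The difference was 2.63 ± 0.44 (SE) on the log2(CPM + 1) scale in limma, or 6.18-fold, with an adjusted p = 0.0712. An antisense gene, Gm45774, overlaps Mt2, and the use of strand in counting is not given in the sources used here, so reads of the pair cannot be told apart.

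Without EPS replicate 2, the EPS means were 326 ± 55.1 CPM for Mt1 and 234 ± 37.9 CPM for Mt2 (SD, n = 3 each). The differences were then 1.66 and 2.20 on the log2(CPM + 1) scale, and both adjusted p-values from limma became 0.0480. Without any other single library, the adjusted p from limma stayed above 0.05. It ran from 0.0930 to 0.215 for Mt1 and from 0.0686 to 0.174 for Mt2. With all libraries, the exact two-sided permutation test of mean CPM over the 35 splits of 7 libraries gave p = 0.0857 for Mt1 and p = 0.0571 for Mt2, where the smallest p the design allows is 0.0286. Among the rises of all 19144 tested genes, Mt2 ranked 13 and Mt1 ranked 20. By mean CPM, Mt1 moved from rank 2112 in the control group to rank 250 in the EPS group, and Mt2 from rank 4166 to rank 406. The 2 genes together took 0.0134%, 0.0141% and 0.0184% of the reads in the control libraries and 0.0464%, 0.178%, 0.0579% and 0.0638% in EPS replicates 1 to 4.

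**Figure D1:**
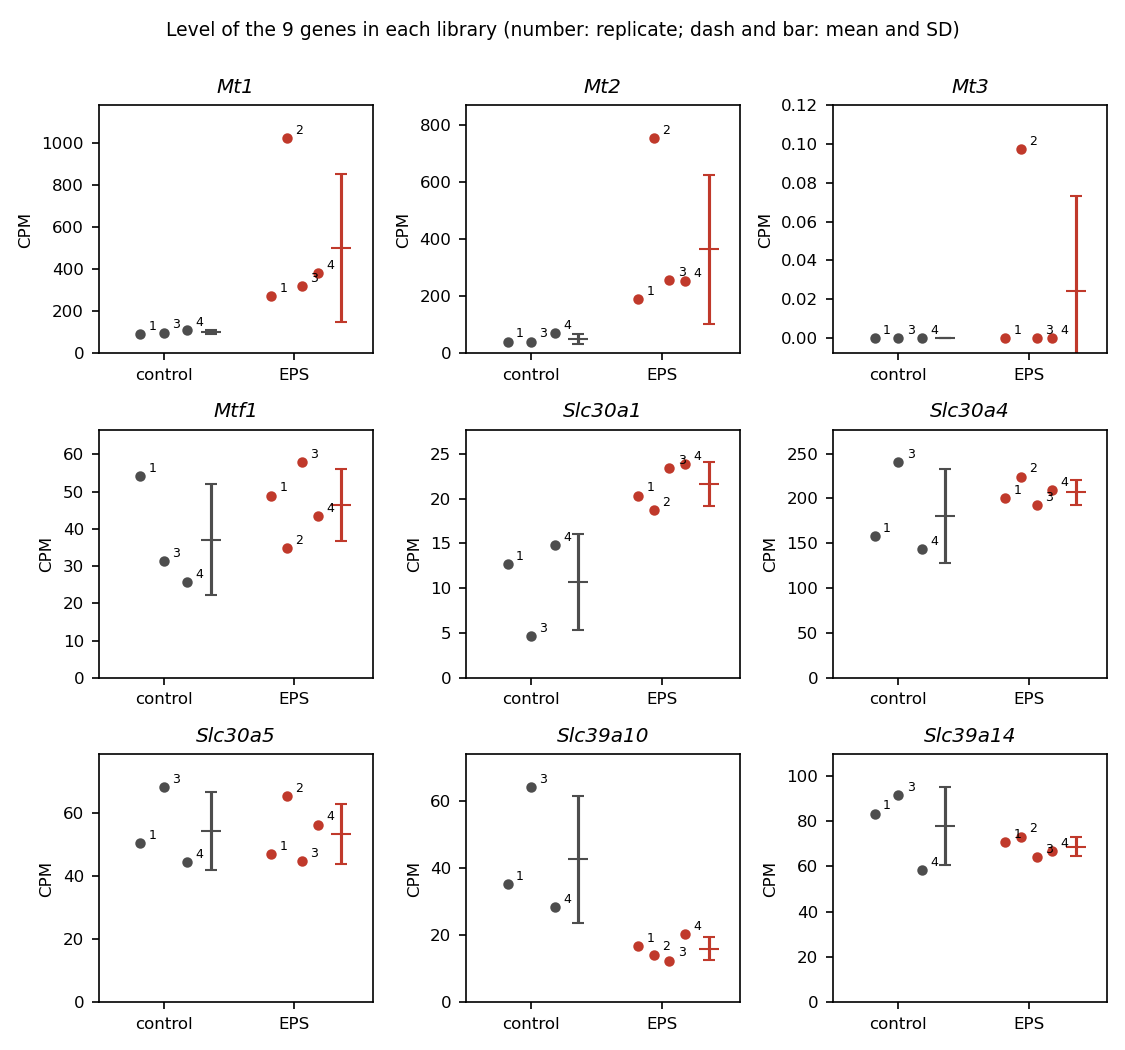
CPM of each of the 9 genes in the 3 control and 4 EPS libraries, 1 panel per gene with its own linear axis; points are libraries labelled by replicate number, dashes are group means and error bars are SDs. Mt1 and Mt2 are higher in all 4 EPS libraries with replicate 2 at 1026 and 757 CPM, Slc30a1 is higher and Slc39a10 lower in all 4, and the other genes overlap between the groups.

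Because Mt1 and Mt2 are close paralogs, their coding sequences were compared to see whether reads of 1 could be counted for the other. Each coding sequence has 186 bases, of which 148 are identical and 38 differ (79.6% identity, GENCODE M21 transcripts on GRCm38). Capitals mark the positions that differ.
Mt1 coding sequence: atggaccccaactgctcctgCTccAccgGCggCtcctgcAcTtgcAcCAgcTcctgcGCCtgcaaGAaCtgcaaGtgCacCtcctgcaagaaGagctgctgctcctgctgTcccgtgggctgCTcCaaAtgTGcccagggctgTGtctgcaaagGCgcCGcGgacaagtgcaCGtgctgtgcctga
Mt2 coding sequence: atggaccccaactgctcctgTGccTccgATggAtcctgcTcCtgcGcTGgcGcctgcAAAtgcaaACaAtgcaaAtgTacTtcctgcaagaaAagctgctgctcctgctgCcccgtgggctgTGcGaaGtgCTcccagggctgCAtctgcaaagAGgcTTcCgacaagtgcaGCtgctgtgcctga
The differences are spread over the whole length. None of the 1292 windows of 50 bases in the Mt1 transcripts, and none of the 554 in the Mt2 transcripts, was found in a transcript of another gene. Mt1 and Mt2 thus share no stretch of 50 bases. The opposite strand was not searched, so the overlap of Gm45774 with Mt2 is not covered.

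The balance of Mt1 and Mt2 also differed between the groups. Mt2 made up 30.8%, 29.5% and 38.5% of the summed Mt1 and Mt2 reads in the control libraries, and 41.1%, 42.4%, 44.5% and 39.9% in EPS replicates 1 to 4. Exact binomial 95% intervals, which cover counting error only, were 37.0% to 40.0% in control replicate 4 and 39.0% to 40.8% in EPS replicate 4. The highest control and the lowest EPS library thus overlap within counting error, while the 2 groups of point values do not. The mean share was 33.0% ± 4.87 (SD, n = 3) in control and 42.0% ± 1.98 (SD, n = 4) in EPS. The log2 ratio of Mt2 to Mt1 reads was 0.56 higher in EPS, or 1.48-fold, with an exact two-sided permutation p of 0.0286, the smallest possible. This ratio was chosen after the values had been seen. EPS replicate 2, the library with the highest level of both genes, had a share of 42.4%, inside the range of the other EPS libraries.

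The remaining metallothioneins were close to 0. Mt3, the brain metallothionein, at chr8:94152607-94154146, had 0 reads in 6 libraries and 2 reads, or 0.0974 CPM, in EPS replicate 2. A count of 3 reads, taken as the limit that a count of 0 allows, correspond to 0.136 to 0.181 CPM in these libraries, so every Mt3 value lay under it and no fold is given. Mt4, the other gene of the cluster, averaged 0 CPM in control and 0.0255 CPM in EPS.

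Mtf1 (ENSMUSG00000028890.13), at chr4:124802104-124849800 on the plus strand, encodes the zinc sensor itself. Its level was 54.1, 31.5 and 25.8 CPM in the control libraries and 49.0, 34.9, 57.9 and 43.5 CPM in EPS replicates 1 to 4. The groups overlapped, with control replicate 1 above 3 of the 4 EPS libraries. The difference was 0.36 (95% interval -0.25 to 0.97) on the log2(CPM + 1) scale, with an adjusted p = 0.658 in limma. The interval leaves room for a rise of nearly 2-fold. EPS replicate 2, with the highest Mt1 and Mt2, had the lowest Mtf1 of the EPS group. Mtf1 shares its locus with 1110065P20Rik on the opposite strand.

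The zinc exporters came next. Slc30a1 (ENSMUSG00000037434.7), at chr1:191906767-191913247 on the plus strand, encodes ZnT1, the transporter that moves zinc out across the plasma membrane and a known target of MTF1. It was measured at 12.7, 4.63 and 14.8 CPM in the control libraries and at 20.3, 18.8, 23.4 and 23.9 CPM in EPS replicates 1 to 4. All 4 EPS libraries lay above all 3 control libraries, and control replicate 3 was the lowest of all. Means were 10.7 ± 5.38 CPM (SD, n = 3) and 21.6 ± 2.46 CPM (SD, n = 4). The difference was 1.07 ± 0.35 (SE) on the log2(CPM + 1) scale, with an adjusted p = 0.270 in limma, and Slc30a1 did not pass the P threshold for a DEG. The exact permutation p was 0.0286, the smallest possible. Without control replicate 3 the difference was 0.61 on the same scale, and without control replicate 4 it was 1.36 and past both thresholds. The antisense gene 1700034H15Rik overlaps Slc30a1.

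Slc30a4 and Slc30a5 encode ZnT4 and ZnT5, which load zinc into endosomal vesicles and into the early secretory pathway. Slc30a4 (chr2:122681233-122702663, minus strand) had the highest CPM of the transporters among the 9 genes, at 158, 240.3 and 144 CPM in control and 200.5, 224, 193 and 209 CPM in EPS. Control replicate 3 was above every EPS library and the other control libraries were below them. Slc30a5 (chr13:100802648-100833427, minus strand) stood at 50.5, 68.4 and 44.5 CPM in control and at 47.2, 65.6, 44.9 and 56.5 CPM in EPS, with full overlap. On the log2(CPM + 1) scale the differences were 0.23 (95% interval -0.21 to 0.67) for Slc30a4 and -0.02 (-0.47 to 0.43) for Slc30a5. Neither passed limma's test, with an adjusted p = 0.706 for Slc30a4 and an adjusted p = 0.973 for Slc30a5.

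Among the importers, Slc39a10 fell. Slc39a10 (ENSMUSG00000025986.6), at chr1:46807544-46892852 on the minus strand, encodes ZIP10, a plasma membrane zinc importer whose transcription is known to be repressed through MTF1 when zinc is plentiful. It was at 35.3, 64.3 and 28.5 CPM in the control libraries and at 16.9, 14.3, 12.5 and 20.3 CPM in EPS replicates 1 to 4. No EPS library reached the lowest control library, and control replicate 3 was the highest of all. The means were 42.7 ± 19.0 CPM (SD, n = 3) and 16.0 ± 3.42 CPM (SD, n = 4). Slc39a10 was down-regulated by -1.30 ± 0.29 (SE) on the log2(CPM + 1) scale, with an adjusted p = 0.126 in limma. The exact permutation p was 0.0286, the smallest possible. Its fall ranked 41 among the 19144 tested genes. Without control replicate 3 the difference was -0.97, under 2-fold, so the call was lost. At P under 0.001, the threshold in the methods of the study, Slc39a10 was not called either, while Mt1 and Mt2 were. Of its 6042 transcript windows of 50 bases, 27 also occurred in Gm6801, and Gm28151 and Gm37393 overlap it on the same strand.

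Slc39a14 encodes ZIP14, an importer of zinc, iron and manganese that is known to rise in inflammation and in wasting muscle. At chr14:70303469-70351425 on the minus strand, it had 83.3, 91.6 and 58.3 CPM in control and 70.8, 73.1, 64.1 and 66.9 CPM in EPS. The EPS libraries lay within the range of the control libraries. The difference was -0.15 (95% interval -0.55 to 0.24) on the log2(CPM + 1) scale, with an adjusted p = 0.789 in limma.

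In groups that do not overlap, 3 of the 9 genes were higher in EPS (Mt1, Mt2 and Slc30a1), against 7.76% of all tested genes, and 1 was lower (Slc39a10), against 2.85%. The other 5 overlapped. Among tested genes with a mean of at least 1 CPM, 12.7% did not overlap in either direction, and 8 of the 9 genes were at that level. With quantile normalization or median-of-ratios scaling, which moved the median of genes with at least 1 CPM by -0.10 and -0.11, the higher share of all DEGs went from 68.8% to 51.6% and 52.8%, while Mt1, Mt2 and Slc39a10 stayed called and Slc30a1 came to 0.94 and 0.97 on the log2 scale.

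The exporter Slc30a1 and the importer Slc39a10 differed in opposite directions. Slc30a1 gave 26.5%, 6.72% and 34.2% of the summed reads of the pair in the control libraries and 54.7%, 56.8%, 65.2% and 54.0% in EPS replicates 1 to 4. Slc39a10 thus had more reads than Slc30a1 in every control library and fewer in every EPS library. The mean share was 22.5% ± 14.2 (SD, n = 3) against 57.7% ± 5.16 (SD, n = 4). On the log2 scale the ratio was 2.52 higher in EPS, or 5.75-fold. The pair was chosen after the values had been seen, for its opposite differences. The ratio therefore only restates them, and no p-value is given for it. Leaving out 1 library at a time gave differences of 1.66 to 3.09, the lowest without control replicate 3.

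**Figure D2:**
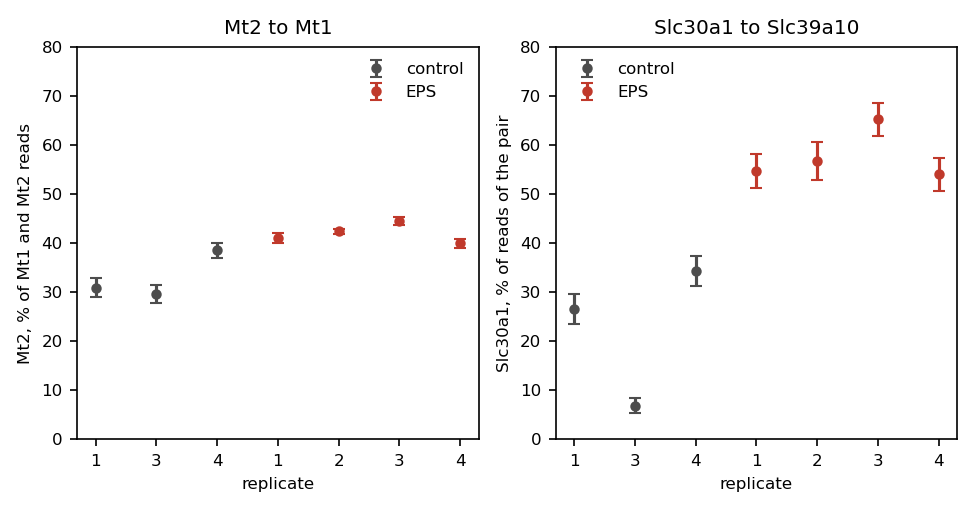
Left, Mt2 reads as a percentage of Mt1 and Mt2 reads; right, Slc30a1 reads as a percentage of Slc30a1 and Slc39a10 reads, in each control and EPS library. Points are libraries and vertical lines exact binomial 95% intervals; the EPS libraries lie at 39.9% to 44.5% on the left and 54.0% to 65.2% on the right, above the control libraries in both panels.

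Levels of different genes were compared as CPM per kilobase of exon union. In the control group the order was Mt2 (87.2 ± 28.7), Mt1 (81.7 ± 8.22), Slc30a4 (32.9), Slc30a5 (7.47), Slc39a14 (7.37), Slc39a10 (7.01), Mtf1 (4.17) and Slc30a1 (2.04). Mt1 and Mt2 did not differ beyond their spread there, nor did Slc30a5, Slc39a14 and Slc39a10 on this length. In the EPS group the order was Mt2 (621), Mt1 (402), Slc30a4 (37.7), Slc30a5 (7.34), Slc39a14 (6.51), Mtf1 (5.20), Slc30a1 (4.12) and Slc39a10 (2.62). Slc39a10 went from above Slc30a1 to below it. With the length of the principal transcript, a measure added after the values were seen, Mt1 was above Mt2 in both groups (185 against 100.3 CPM per kilobase in control, 913 against 714 in EPS), because the exon union of Mt1 is 1246 bp and its principal transcript 549 bp. Which of the 2 metallothioneins had the higher level per length is therefore not settled by these values. On this length Slc39a10 in control (7.77 ± 3.46) was also below Slc30a5 (17.1 ± 3.91) and Slc39a14 (15.8 ± 3.52) by more than any of these SDs (n = 3 each). Slc39a10 and Slc30a1 changed order on this length too, from 7.77 against 2.04 to 2.91 against 4.12.

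**Figure D3:**
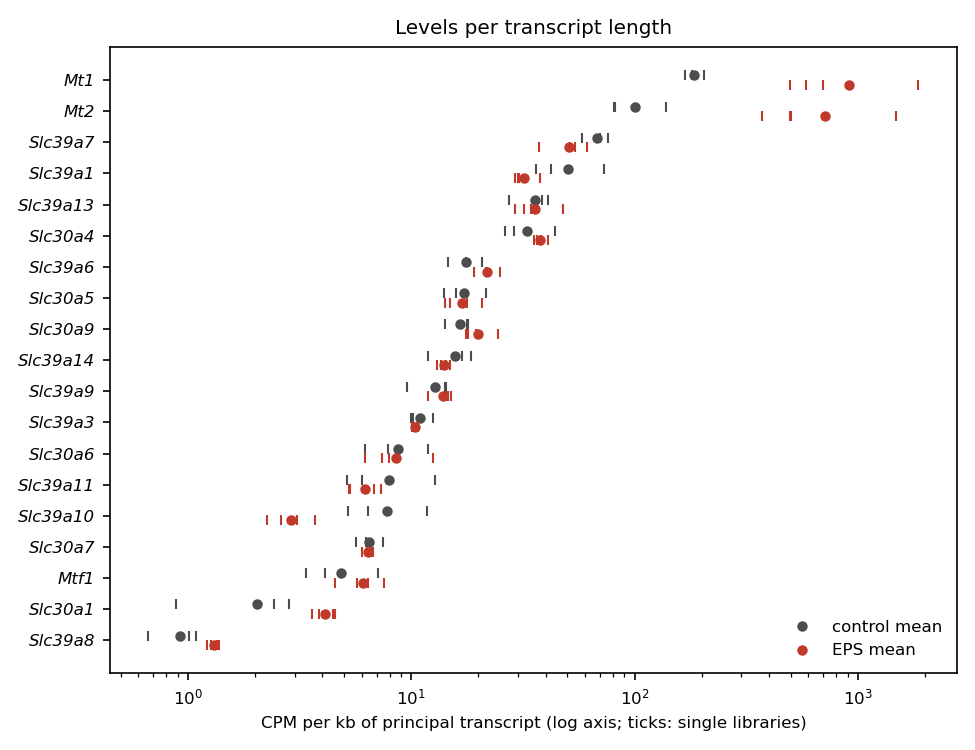
CPM per kilobase of principal transcript, on a log axis, for Mtf1 and the metallothionein and zinc transporter genes with a mean of at least 1 CPM; circles are group means and ticks single libraries. Mt1 and Mt2 lead in both groups, and Slc30a1 and Slc39a10 change order, from 2.04 and 7.77 in control to 4.12 and 2.91 in EPS.

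The wider families were counted in the same way. Over all tested genes, limma called 0.966% higher and 0.439% lower, so counts near 0 are not unusual in lists this short. Such counts do not show how far the changes reached. Of the 10 SLC30 genes, 9 were tested, Slc30a8 having no reads, and none passed both thresholds in limma, edgeR or DESeq2. At an unadjusted P under 0.05 there was 1, Slc30a1, against 11.6% of all tested genes in limma. Their median difference was 0.00 on the log2(CPM + 1) scale, against 0.04 over all tested genes. For the 6 with a mean of at least 1 CPM it was 0.11, against 0.10 over all genes at that level. The summed level was 348 to 509 CPM in control and 441 to 535 CPM in EPS. Slc30a1 had the largest rise, and Slc30a3, which loads zinc into synaptic vesicles, the largest fall, at -0.07 on the log2(CPM + 1) scale with means under 1 CPM. Of the 14 SLC39 genes, 1 was called lower and 0 higher by each of the 3 tools, with a median difference of -0.02. For the 10 with a mean of at least 1 CPM the median was -0.11, against 0.10 over all genes at that level. The summed SLC39 level was 667 to 711 CPM in the control libraries and 559 to 595 CPM in the EPS libraries, without overlap. Slc39a10 was the gene called, and Slc39a8 (ZIP8, an importer of zinc and manganese) had the largest rise, 0.41 (95% interval -0.12 to 0.94), with means of 3.26 ± 0.80 CPM in control and 4.60 ± 0.26 CPM in EPS (SD, n = 3 and n = 4). Slc39a1, named after its values were seen, averaged 119 ± 46.3 CPM in control and 75.3 ± 9.49 CPM in EPS, with an adjusted p = 0.378 in limma and groups that overlapped.

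**Figure D4:**
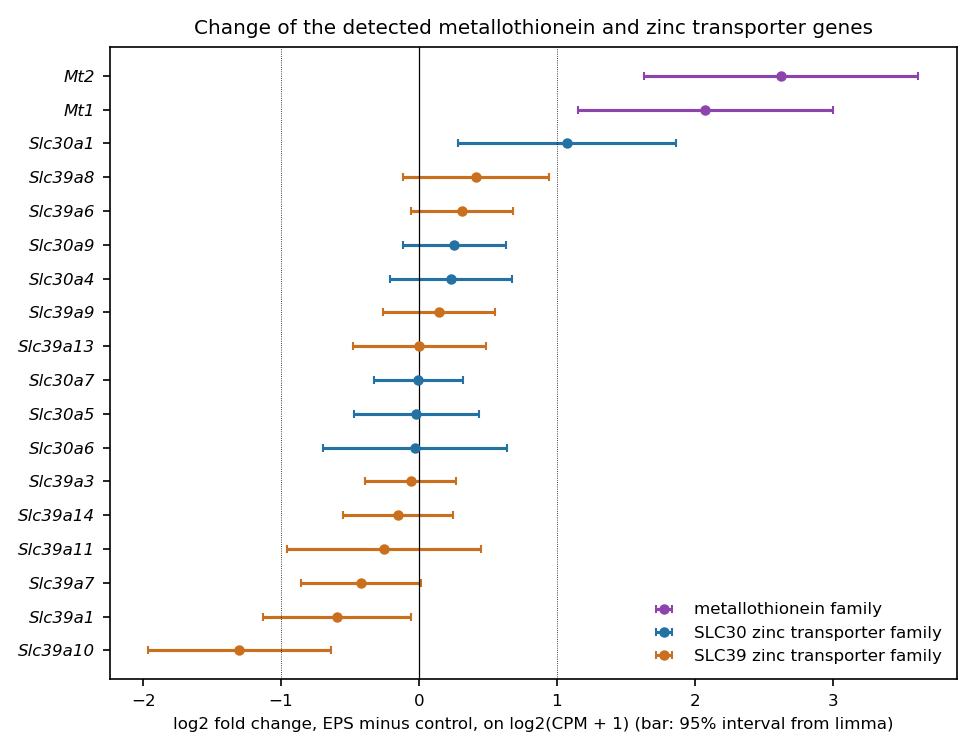
Difference between EPS and control on the log2(CPM + 1) scale for the genes of the metallothionein, SLC30 and SLC39 families with a mean of at least 1 CPM; points are estimates and bars 95% intervals from limma. Dotted lines mark a 2-fold change; Mt2 at 2.63 and Mt1 at 2.08 stand above all transporters shown, of which Slc30a1 is highest at 1.07 and Slc39a10 lowest at -1.30, with Slc39a1 at -0.59 and Slc39a8 at 0.41.

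A list of 6 genes described elsewhere as responsive to MTF1 in mouse cells holds Slc30a1 and Slc39a10 but not Mt1 and Mt2. Only Slc39a10 was called, as lower, by limma, edgeR and DESeq2. In each of these tools 4 of the 6 had an unadjusted P under 0.05, which 11.6% of all tested genes had in limma. All 6 had a mean of at least 1 CPM, and their median difference was 0.35 against 0.10 over all tested genes at that level. The list mixes Slc39a10, which is repressed through MTF1, with Slc30a1, a target of MTF1. This signed median therefore does not measure a response to MTF1. The other 4 are named because the list is short, and none of them was called. Ndrg1, a gene raised by hypoxia and stress, averaged 119 ± 9.23 CPM in control and 227 ± 64.9 CPM in EPS (0.89 on the log2(CPM + 1) scale, adjusted p = 0.167 in limma, under 2-fold). Pgf, placental growth factor, averaged 10.1 ± 1.99 and 6.06 ± 1.13 CPM (-0.65, adjusted p = 0.365 in limma). Selenoh, a nuclear selenoprotein, and Csrp1, a LIM-domain protein, overlapped between the groups at 0.63 and 0.07.

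The genes whose profile over the 7 libraries was most like Mt1, Mt2 or Slc39a10 were sought among 9255 genes with a mean of at least 10 CPM. Likeness was the mean absolute difference of log2(CPM + 1), each gene taken relative to its control mean, so a smaller value is a closer match. The closest to Mt1 were Fgfbp1 (0.34), Pir (0.35), Fbxo40 (0.37), Aox1 (0.37) and Ikbkg (0.38), with Mt2 at rank 10. Closest to Mt2 were Mgst2, a microsomal glutathione transferase (0.21), Mt1 (0.41), Esd (0.46), Gstm1, a cytosolic glutathione transferase (0.46), and Hmox1, the inducible heme oxygenase (0.48). Mgst2 stood at 1.40, 2.23 and 3.39 CPM in control and 11.7, 45.7, 17.6 and 25.6 CPM in EPS replicates 1 to 4. Its highest value was in the same EPS library as that of Mt2. The filter took the mean over all 7 libraries, so it favoured genes that rise. Mgst2 (mean of 2.34 CPM in control) and Pir (8.76 CPM in control) passed it only through their EPS values. Closest to Slc39a10 were Vcam1, an adhesion molecule of myoblasts (0.19), Slc1a3, a glutamate transporter (0.23), Asns, asparagine synthetase (0.27), Adamts1 (0.28) and Fgf21 (0.28). Vcam1, Slc1a3, Asns and Fgf21, like Slc39a10, had their highest control value in replicate 3. All these genes were chosen for likeness over the same 7 libraries. Shared peaks, also that of Mgst2 and Mt2, therefore largely follow from the choice and are no separate result.

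**Figure D5:**
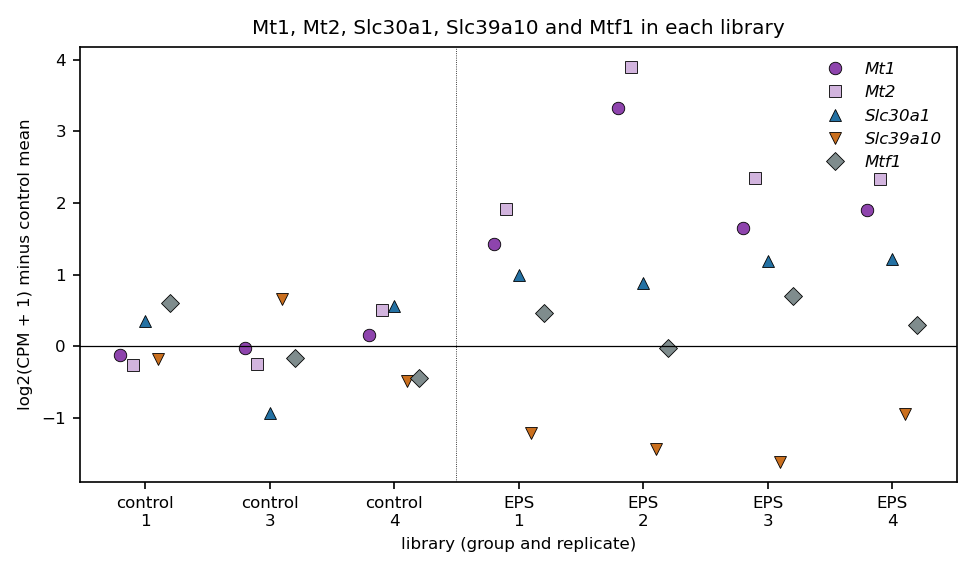
Level of Mt1, Mt2, Slc30a1, Slc39a10 and Mtf1 in each library, as log2(CPM + 1) minus the mean of the control libraries. Mt1 and Mt2 share their highest point in EPS replicate 2, while in control replicate 3 Slc39a10 is at its highest and Slc30a1 at its lowest.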

How the data were processed

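RNA-seq was performed on 3 control and 4 EPS libraries of C2C12 myotubes. Poly(A) RNA was made into directional libraries and read as paired ends of 100 bp. The authors mapped reads to GRCm38 with STAR 2.5.4b and deposited CPM per gene symbol. The read counter, annotation and strand setting are not given in the sources used here. The deposited CPM sum to 1000000 in each library, and 100% of the values were whole reads within 0.01 read. Totals of 16616917 to 22120641 reads set the counting precision.

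Groups and replicate numbers came from the labels. log2(CPM + 1) was fitted in limma 3.58.1 (R 4.3.3, empirical Bayes with a mean-variance trend) over the 19144 genes that any library detected, EPS against control, all 7 libraries, no covariate. A pseudocount of 1 understates the change of low genes. Single genes were tested by exact two-sided permutation of mean CPM over 35 splits. edgeR 4.0.16 (quasi-likelihood, 329 DEGs higher and 300 lower) and DESeq2 1.42.0 were run on the recovered reads as alternatives, beside pseudocounts of 0.5 and 0.1, a mean of at least 1 CPM, quantile normalization, median-of-ratios scaling, a replicate block, P under 0.001 and leaving out each library. The fits were tested on simulated reads.

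The 9 genes and the lists (metallothioneins, SLC30, SLC39, MTF1-responsive genes, copper handling, glucocorticoid receptor targets, myotube and myoblast markers) were chosen with earlier results of these data known. Beside the 9 genes, the text names every listed gene past the thresholds, the largest rise and fall of SLC30 and SLC39, and the 5 genes most like Mt1, Mt2 and Slc39a10, with exceptions stated. The log2 ratios and the principal transcript length were added after the values were seen. Coordinates and transcripts are GENCODE M21 on GRCm38, promoters RefSeq on GRCm38.p6.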

Additional observations from a re-analysis of the deposited data

Results flagged for a closer look

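EPS replicate 2 stood apart from the other EPS libraries for the metallothioneins. Mt1 was 1026 CPM there, and its gap to the next library was 0.854 of the range of the group, above Dixon's 95% critical value for 4 samples. Mt2 was 757 CPM in the same library, with a ratio of 0.882. Mt3 was at 0.0974 CPM, which is 2 reads, against 0 in the other EPS libraries, so its flag rests on a value under the 3-read limit. Chance flags about 1 in 20 groups when values are normally distributed. The measure was taken on CPM and not on the log2(CPM + 1) scale of the fits, where the gaps are smaller relative to the range. Mt1 and Mt2 in this library kept the ratio of the other EPS libraries, with Mt2 at 42.4% of their summed reads. Mtf1, Slc30a1, Slc30a4, Slc30a5, Slc39a10 and Slc39a14 were not set apart in any EPS library by this measure.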

How the results depend on the processing

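Mt1 (1.66 to 2.30 on the log2 scale) and Mt2 (2.20 to 2.88) kept their direction and call in all 15 alternatives. Slc30a1 passed both thresholds with a pseudocount of 0.1 (1.16) and a mean of at least 1 CPM (1.07), and ran from 0.61 to 1.36 when libraries were left out. Slc39a10 lost its call with the replicate block (-1.26) and at P under 0.001, where Mt1 and Mt2 were still called, and ran from -1.54 to -0.97 when libraries were left out. Slc30a5 ran from -0.15 to 0.15 and was positive without control replicate 3 (0.15), EPS replicate 1 (0.04) or EPS replicate 3 (0.06). Mt3 was 0 with the block. Over all genes, DEGs higher and lower in EPS were 185 and 84, and became 445 and 156 with a pseudocount of 0.1, 329 and 300 in edgeR, 317 and 268 in DESeq2, 71 and 35 at P under 0.001, 99 and 62 with the block, and 140 to 232 and 57 to 110 without 1 library. Genes with an adjusted p under 0.05 were 27, and became 106 with a pseudocount of 0.1, 121 with a mean of at least 1 CPM, 17 with quantile normalization, 290 in edgeR, 497 in DESeq2, 0 with the block in limma (1628 at an unadjusted P under 0.05) and 0 to 27 without 1 library, 0 without EPS replicate 3 (2224 unadjusted), 27 without EPS replicate 1, and 4 to 8 without any other. The cause of these shifts was not tested, except that the filter tests fewer genes. The ratio of Mt2 to Mt1 differed by 0.45 to 0.74 and that of Slc30a1 to Slc39a10 by 1.66 to 3.09 without 1 library. For Mt2 to Mt1 the exact permutation p was then 0.0667 or 0.1, the smallest those designs allow. The replicate numbers were used as a block in an alternative only, since deviations of same-numbered libraries correlated at 0.25, -0.45 and 0.07 for replicates 1, 3 and 4, and control replicate 1 correlated best with EPS replicate 3 (0.59). The block leaves out EPS replicate 2, which has no control of its number. Counting error is small at 77 reads or more, except for Mt3.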

Other observations

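Copper, the other metal that metallothioneins hold, has its own transporters and chaperones. Of that list, 0 of 9 tested genes passed both thresholds in limma, edgeR or DESeq2. Over all tested genes, limma called 0.966% higher and 0.439% lower, so this count is not unusual and does not show that copper genes were unchanged. In each tool 1 had an unadjusted P under 0.05, against 11.6% of all tested genes in limma. The 8 of them with a mean of at least 1 CPM had a median difference of 0.10 on the log2(CPM + 1) scale, the same as all genes at that level (0.10). Ccs, the chaperone that loads copper into superoxide dismutase, named after its values were seen, averaged 16.0 ± 6.79 CPM (SD, n = 3) in control and 25.2 ± 2.52 CPM (SD, n = 4) in EPS (adjusted p = 0.400 in limma), with all EPS libraries above all control libraries. Sco1, which delivers copper to cytochrome oxidase, went from 22.1 ± 1.49 to 18.2 ± 1.30 CPM (adjusted p = 0.589 in limma), also without overlap. The importer gene Slc31a1 and the copper pump gene Atp7a overlapped between the groups, at -0.08 and 0.03 on the log2(CPM + 1) scale.

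Glucocorticoids are a known inducer of Mt1 and Mt2, and their part here was not tested. On the list of glucocorticoid receptor targets, 0 of 9 tested genes passed both thresholds in limma. Over all tested genes, 0.966% were called higher and 0.439% lower, so a count of 0 in 9 is not unusual. Of the 9, 2 had an unadjusted P under 0.05, against 11.6% of all tested genes, and edgeR and DESeq2 each called 1, Cebpd, as lower. The median difference of the 9 was 0.11, against 0.10 over all genes with a mean of at least 1 CPM. Fkbp5 and Tsc22d3, named as 2 widely used readouts of the receptor, differed by -0.01 (95% interval -0.72 to 0.70) and 0.19 (-0.44 to 0.82) on the log2(CPM + 1) scale. Pdk4, which restrains glucose oxidation, was named after its values were seen. It averaged 26.7 ± 3.21 CPM (SD, n = 3) in control and 53.6 ± 7.65 CPM (SD, n = 4) in EPS, a difference of 0.97 with an adjusted p = 0.0730 in limma, just under 2-fold on that scale. Cebpd averaged 27.5 ± 21.8 CPM in control and 9.40 ± 4.78 CPM in EPS, with groups that overlapped (adjusted p = 0.407 in limma).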
